A study of Danio rerio with 27 samples.

Results

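The phagocyte NADPH oxidase was followed through 6 of its genes, ncf1, ncf4, cyba, cybb, rac2 and hvcn1. The cells were sorted as metaphocyte progenitors from adult zebrafish. The genes were chosen by symbol, and all 6 were found among the 32520 genes of the expression table. Transcripts were measured in 27 libraries of 30 sorted cells each, amplified by 23 PCR cycles after the Smart-seq2 method, which reads whole poly(A) transcripts from few cells. All fish carried Tg(spic:EGFP; mpeg1:DsRedx), and cells were sorted as positive for EGFP under spic and negative for DsRedx under mpeg1. The groups were sibling epidermis (7 libraries), spic mutant epidermis (7), sibling gill (5) and spic mutant gill (8). The labels do not state the spic allele, the full genotype of the siblings or which fish gave which library, so p-values measure the spread between libraries, and some of that spread may be technical.

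The phagocyte oxidase moves electrons from NADPH across a membrane to oxygen and so makes superoxide. Its catalytic core in the membrane is a flavocytochrome of Cybb, which carries the electrons, and Cyba, its stabilising partner and the docking site for the cytosolic part. On activation, cytosolic subunits, among them Ncf1 (the organizer) and Ncf4, and the small GTPase Rac2 join the core, and the proton channel Hvcn1 balances the charge that the electrons carry. These roles were worked out mainly in human and mouse neutrophils and macrophages. Metaphocytes resemble macrophages and reside in the skin, gill and gut of zebrafish. Those of the skin derive from ectoderm.

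Values are TPM, transcript abundances divided by gene length and rescaled to a fixed library sum, which allow levels of different genes to be set side by side within a library. The low values were whole multiples of the value of 1 read, so that the reads behind each value could be counted; for the 6 genes every value was whole within 0.001 of a read. One read of ncf1, for example, was worth 0.106 to 0.229 TPM. Genes with at least 1 TPM in 5 or more libraries were tested, 13465 in all. This let in 5 of the 6 oxidase genes and left out hvcn1, which reached 1 TPM in 4 libraries. The test was limma on log2(TPM + 1), with p-values adjusted over all tested genes and a threshold of 0.05.

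The labels were checked first. The targeted gene spic stood at 638 ± 76.3 TPM (SD, n = 7) in sibling epidermis and 38.9 ± 40.5 TPM in mutant epidermis (24.5 TPM without mutant epidermis 5), and at 293 ± 132 TPM (n = 5) and 18.8 ± 17.7 TPM (n = 8) in gill, with no overlap in either tissue (two-sided exact permutation test on log2 values, p = 0.000583 and p = 0.00155, the smallest each design allows). Of other phagocytes, the neutrophil peroxidase gene mpx and the macrophage genes csf1ra, c1qa and c1qb were at 0 in all 27 libraries, and csf1rb and marco stayed under 1 TPM. Other neutrophil markers were present: of 9, 7 reached 1 TPM in some library of sibling epidermis and 4 in each of the other groups. Of 10 macrophage markers, 1 reached 1 TPM in each sibling group, 2 in mutant epidermis and 5 in mutant gill. The summed TPM of 9 neutrophil markers was 166 to 610 in sibling epidermis, 1.70 to 40.4 in mutant epidermis, 39.4 to 109 for sibling gill and 0 to 109 for mutant gill. The sum of 10 macrophage markers was 101 to 335, 0.676 to 5.57, 12.2 to 140 and 0.175 to 181 TPM in the same order. The neutrophil list includes mmp9, described again among effector genes, and in siblings the 1 macrophage marker that reached 1 TPM was mpeg1.1, whose promoter drives the reporter that the sort excluded. The sum of 7 metaphocyte markers, spic among them, was 1367 to 7001 TPM in sibling and 393 to 3226 TPM in mutant epidermis. In gill it was 2432 to 8560 TPM in siblings and 1546 to 5080 TPM in mutants, so the genotypes overlapped in both tissues. Other markers moved the opposite way with genotype. The sum of 10 neuroendocrine and Merkel-like markers was 17.1 to 233 TPM in sibling epidermis and 571 to 8083 TPM in mutant epidermis, 25.3 to 665 TPM for sibling gill against 2475 to 6454 TPM for mutant gill. The sum of 9 keratinocyte markers was 780 to 1766 against 1420 to 13656 TPM in epidermis and 75.1 to 304 against 442 to 1408 TPM in gill. Of the 9, krt17, krt1-19d and krtt1c19e stayed under 1 TPM in all libraries. In mutant epidermis 5 of the 9 reached 1 TPM, and 4 did so in each other group. The part of these markers in the oxidase results was not tested. In bulk samples, fewer cells of a type and less RNA per cell cannot be told apart. Fewest genes at 1 TPM were found in mutant epidermis 2 and 4 and mutant gill 8, at 6663, 6469 and 6755; the other libraries had 7126 to 10655.

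In sibling cells of both tissues, ncf1 and cyba were the most abundant oxidase genes, rac2 followed, cybb was lower and variable, and ncf4 and hvcn1 were lowest, with ncf4 missing from 3 sibling gill libraries and hvcn1 from libraries of both tissues. In mutants, ncf1, cyba and rac2 were lower in both tissues. Of the 5 tested genes these 3 fell in epidermis, where 8.69% of all tested genes fell, and the same 3 fell in gill, where 3.87% of all tested genes fell. None of the 5 rose, beside 4.13% of all tested genes that rose in epidermis and 2.34% in gill. In either direction, 12.8% of tested genes passed in epidermis and 6.21% in gill. The split of all calls depended on scaling: 556 higher and 1170 lower in epidermis and 315 and 521 in gill became 2034 and 408, and 1079 and 224, when each library was centred on its median, which moved the median difference of all genes to 0.91 and 0.83. With that centring the calls of ncf1 and rac2 held in both tissues and that of cyba in epidermis alone. The median log2 difference of the 5 genes was -5.32 in epidermis, beside -0.27 over all tested genes, and -2.85 in gill, beside -0.03. Summed over the 6 genes, the level was 2483 ± 557 TPM (SD, n = 7) for sibling against 67.6 ± 33.5 TPM (n = 7) for mutant epidermis, and 1503 ± 316 TPM (n = 5) for sibling against 212 ± 157 TPM (n = 8) for mutant gill.

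**Figure D1:**
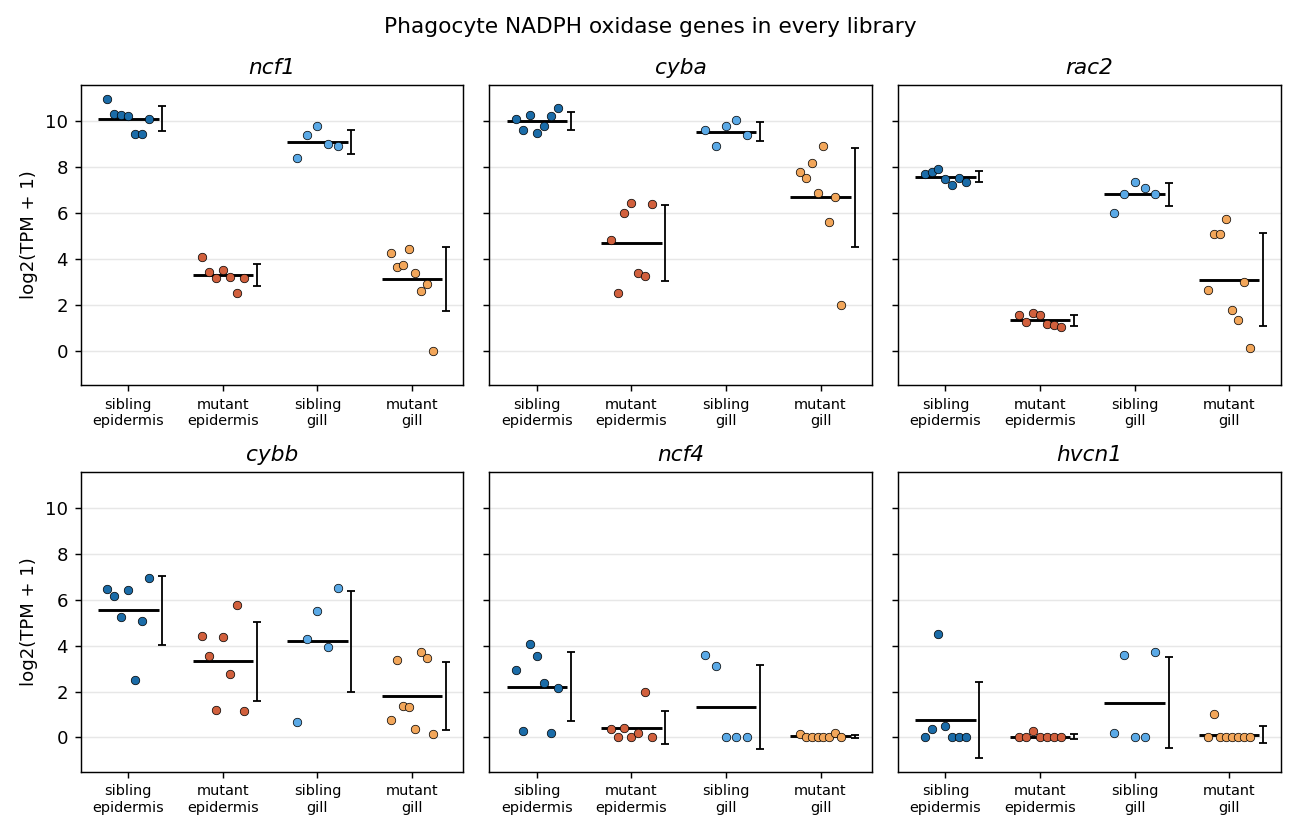
Level of each of the 6 oxidase genes as log2(TPM + 1) in every library of the 4 groups; each point is 1 library, the bar is the group mean and the whisker its SD. The mutant points of ncf1 and rac2 lie below all sibling points in both tissues, while those of cybb, ncf4 and hvcn1 overlap the sibling points.

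The organizer gene ncf1 (ENSDARG00000033735) had the largest log2 difference of the 5 tested genes in each tissue. In sibling epidermis it ranged from 686 to 2018 TPM with a median of 1181 TPM, and in mutant epidermis from 4.64 to 16.0 TPM with a median of 8.30 TPM. These values rested on 5041 to 17419 reads in sibling libraries and 27 to 109 reads in mutant libraries. The sibling gill libraries 1 to 5 held 339, 680, 875, 513 and 483 TPM, and the mutant gill libraries ranged from 0 to 20.6 TPM with a median of 10.5 TPM. In each tissue every mutant library was far below every sibling library, and mutant gill 8 held no read of ncf1, which allows up to 0.608 TPM (3 reads, counting error only). A lack of overlap in that direction was seen for 3.6% of tested genes in epidermis and 1.73% in gill, and in the opposite direction for 2.03% and 1.81%. The log2 difference between mutant and sibling was -6.80 (SE 0.56) in epidermis (limma, adjusted p = 1.49e-10) and -5.98 (SE 0.60) in gill (adjusted p = 2.70e-08). What was left was 0.799% of the sibling mean in epidermis and 1.81% in gill. By that share ncf1 did not stand apart: 0.802% of rac2 was left in epidermis, and 0.891% of ncf4, on few reads, in gill.

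In epidermis the mutant remainder of ncf1 ranged between libraries from 0.399% to 1.38% of the sibling mean. A similar share was left of some other abundant genes. Of 1040 genes averaging 100 TPM or more in sibling epidermis, 43 had less than 1% of it left in mutants and 1 had less than 0.5%. In gill, 8 of 1124 such genes had less than 1% left and 0 had less than 0.5%. The ncf1 and rac2 values of mutant epidermis therefore lie at the lower end of what any abundant gene reached in that group.

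The GTPase gene rac2 (ENSDARG00000038010) was nearly as depleted in epidermis but less so in gill. Sibling epidermis ranged from 149 to 243 TPM with a median of 185 TPM, and mutant epidermis from 1.02 to 2.14 TPM with a median of 1.40 TPM, from 14 to 30 reads a library. In gill, sibling libraries 1 to 5 held 62.2, 111, 161, 135 and 112 TPM. Mutant gill ranged from 0.0882 to 52.4 TPM with a median of 6.09 TPM. The mutant gill libraries 2, 3 and 4 held 32.5, 32.8 and 52.4 TPM, where the lowest sibling library held 62.2 TPM. The other 5 mutant gill libraries held at most 6.88 TPM. The groups overlapped in neither tissue. The log2 difference was -6.25 (SE 0.72) in epidermis (limma, adjusted p = 8.26e-08) and -3.72 (SE 0.76) in gill (adjusted p = 0.00167), leaving 0.802% and 14.4% of the sibling means. Rac2 has close paralogues, and the labels do not state how reads matching several genes were counted. The paralogues rac1a and rac1b had group means of 16.1 to 38.4 TPM and passed in neither tissue (adjusted p = 0.462 and 0.679 in epidermis, 0.862 and 0.747 in gill).

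The membrane partner gene cyba (ENSDARG00000018283) kept the most transcript among the 3 genes that fell. Sibling epidermis ranged from 717 to 1515 TPM with a median of 1073 TPM, and mutant epidermis from 4.73 to 85.7 TPM with a median of 27.1 TPM. In gill, sibling libraries 1 to 5 held 770, 476, 868, 1044 and 678 TPM, and mutant gill ranged from 2.93 to 487 TPM with a median of 148 TPM. The epidermal groups did not overlap. In gill, mutant library 5 at 487 TPM lay above the lowest sibling library at 476 TPM, and the other 7 mutant libraries lay below it. The log2 difference was -5.32 (SE 0.72) in epidermis (limma, adjusted p = 1.66e-06) and -2.85 (SE 0.77) in gill (adjusted p = 0.0191), leaving 3.81% and 23.5% of the sibling means. The gill call ended without sibling gill 3 or without sibling gill 4 (highest adjusted p = 0.0616), with median centring (0.0687), with no filter on low values (0.0545) and with gill libraries fitted alone (0.0581).

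The catalytic subunit gene cybb (ENSDARG00000056615) varied widely within groups. It ranged from 4.70 to 122 TPM with a median of 71.4 TPM in sibling epidermis and from 1.25 to 52.8 TPM with a median of 10.7 TPM in mutant epidermis. The sibling gill libraries 1 to 5 held 0.583, 18.6, 44.8, 14.4 and 88.9 TPM, and mutant gill ranged from 0.101 to 12.3 TPM with a median of 1.53 TPM. Groups overlapped in both tissues. Mutant gill 6, with the highest cybb level of its group, also had the group's highest macrophage marker sum, and mutant gill 8 was lowest in both. Other mutant libraries departed from this order. Mutant gill 3 had a marker sum of 37.03 TPM with 1.57 TPM of cybb, and mutant gill 7 had 1.53 TPM with 10 TPM. Mutant epidermis 6, with the highest cybb level of its group at 52.8 TPM, had a marker sum of 0.853 TPM. The part of macrophage transcripts in the cybb values was not tested. The log2 difference was -2.23 (95% interval -4.11 to -0.35) in mutant epidermis and -2.37 (-4.37 to -0.36) in mutant gill, and neither passed over all genes (limma, adjusted p = 0.116 and 0.168). The gill difference passed in 1 of 13 fits that left out a library, without sibling gill 1 (adjusted p = 0.0445). Of the sibling mean, 25.5% was left in mutant epidermis and 13.4% in mutant gill. Leaving out mutant epidermis 6 changed its group mean from 15.9 to 9.80 TPM, and leaving out sibling gill 5 changed that of its group from 33.4 to 19.6 TPM.

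**Figure D2:**
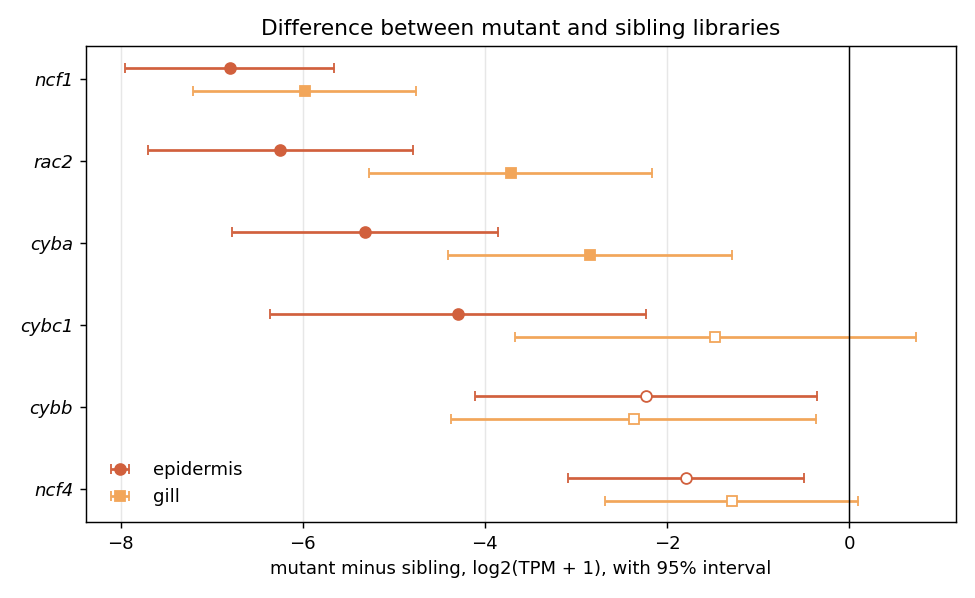
Difference between mutant and sibling libraries on the log2(TPM + 1) scale with its 95% interval, for the 5 tested oxidase genes and for cybc1, in epidermis (circles) and gill (squares); filled symbols passed an adjusted p of 0.05. The points of ncf1 lie farthest from 0 in each tissue, at -6.80 and -5.98, and those of cybb and ncf4 are open in both tissues.

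The accessory subunit gene ncf4 (ENSDARG00000040812) was low throughout and missing from many libraries. It ranged from 0.131 to 15.9 TPM with a median of 4.12 TPM in sibling epidermis and from 0 to 2.98 TPM with a median of 0.151 TPM in mutant epidermis. The sibling gill libraries 1 to 5 held 11.0, 7.55, 0, 0 and 0 TPM, and no mutant gill library exceeded 0.142 TPM. All 8 mutant gill libraries together held 2 reads, against 149 reads in the 5 sibling libraries, of which 107 came from sibling gill 1. The log2 difference was -1.79 (95% interval -3.09 to -0.49) in epidermis and -1.29 (-2.68 to 0.10) in gill, and it passed in neither (limma, adjusted p = 0.0609 and 0.305). In epidermis it passed without sibling epidermis 2 or 6 or without mutant epidermis 6, with a lowest adjusted p of 0.0261, and with array weights (0.0416).

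The proton channel gene hvcn1 (ENSDARG00000040338) was found in single libraries. In sibling epidermis library 3 held 21.8 TPM from 126 reads and the other 6 held at most 0.396 TPM. Gill libraries 1 to 5 of siblings held 0.145, 11.2, 0, 0 and 12.3 TPM. Mutant libraries held 5 reads in all, 1 in epidermis and 4 in gill. Of the 27 libraries 19 held no read, which allows up to 0.472 to 0.934 TPM depending on the library. Mutant and sibling means of log2(TPM + 1) differed by -0.72 for epidermis (exact permutation, two-sided, p = 0.192) and by -1.38 for gill (exact permutation, p = 0.126). No difference in hvcn1 was detectable in these libraries, most of which held no read of it.

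The balance between the genes is described by group and was not tested. In sibling epidermis ncf1 made up 32.7% to 59.5% of the summed TPM of the 6 genes and exceeded cyba in 3 of 7 libraries. In sibling gill it made up 28.6% to 52.1% and exceeded cyba in 2 of 5 libraries. In mutant gill it made up 0% to 10.8%, cyba made up 60.8% to 97.6%, and ncf1 was below cyba in all 8 libraries. In mutant epidermis the make-up varied from library to library: cyba ranged from 12.1% to 89.0% and cybb from 1.33% to 75.3%. The mean log2 ratio of ncf1 to cyba, with 1 TPM added to each, was 0.10 ± 0.68 (SD, n = 7) in sibling epidermis and -1.39 ± 1.61 in mutant epidermis. In gill it was -0.43 ± 0.71 (n = 5) in siblings and -3.57 ± 1.13 (n = 8) in mutants. The value of mutant gill 8, -1.97, depends on the added 1 TPM, since its ncf1 was at 0. These shares rest on small sums in mutants, 3.12 TPM in mutant gill 8 and at least 24.8 TPM in mutant epidermis.

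**Figure D3:**
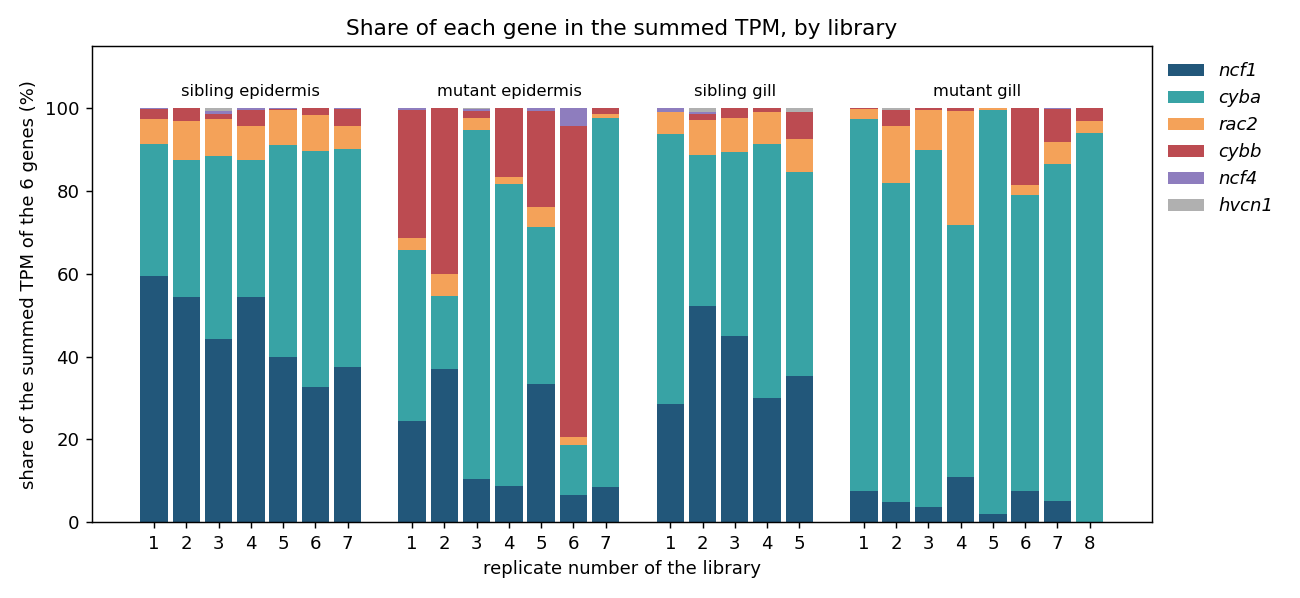
Share of each of the 6 oxidase genes in their summed TPM, in percent, with 1 bar per library. In sibling bars ncf1 and cyba fill most of the height, in mutant gill bars cyba fills 60.8% to 97.6%, and mutant epidermis bars differ among themselves.

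Between tissues, no oxidase gene differed past the threshold. In siblings, log2 differences of gill against epidermis were -0.996 for ncf1, -0.46 for cyba, -0.77 for rac2, -1.36 for cybb and -0.88 for ncf4, where 0.958% of all tested genes passed in either direction and 0.631% were higher in gill (limma, adjusted p of the 5 genes from 0.749 to 0.982). In mutants, where 4.23% of all tested genes passed and 3.4% were higher in gill, cyba was higher in gill than in epidermis by 2.0 (95% interval 0.59 to 3.42) and rac2 by 1.76 (0.35 to 3.17), without passing (adjusted p = 0.0959 and 0.151). Both passed when mutant gill 8 was left out (adjusted p = 0.00281 for cyba and 0.0423 for rac2). The levels of ncf1 in the mutant tissues differed by -0.17 (95% interval -1.28 to 0.94; adjusted p = 0.916).

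The mutant effect itself was compared between tissues by its interaction, which 0.0594% of all tested genes passed (0.0371% less negative or more positive in gill, 0.0223% the reverse). The log2 difference was less negative in gill by 2.47 (95% interval 0.33 to 4.61) for cyba and by 2.53 (0.41 to 4.66) for rac2. The same contrast was 0.82 (-0.85 to 2.50) for ncf1, 0.50 (-1.40 to 2.40) for ncf4 and -0.14 (-2.89 to 2.61) for cybb. None of the 5 passed (limma, adjusted p = 0.415 for cyba, 0.398 for rac2 and at least 0.811 for the others). From highest to lowest mean log2 level, the order for ncf1 and cybb was sibling epidermis, sibling gill, mutant epidermis and mutant gill, and for cyba and rac2 mutant gill stood above mutant epidermis.

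Of a list of other oxidase genes and relatives of rac2, 8 of the 16 genes followed here were tested. In epidermis 3 fell and 0 rose, beside 8.69% and 4.13% of all tested genes. They were cybc1, whose mammalian counterpart helps the flavocytochrome to fold, and rhogb and rhoga, counterparts of a mammalian GTPase that acts upstream of Rac. In gill 0 passed (limma), beside 3.87% of all tested genes that fell and 2.34% that rose. At an unadjusted p under 0.05, which 18.8% of all tested genes reached in gill, were 3 of the 8, noxo1a with a higher mean in mutants and rhogb and rhoga with a lower one. The median log2 difference of the 8 genes was -1.13 in epidermis, beside -0.27 over all tested genes, and 0.35 in gill, beside -0.03.

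The gene cybc1 stood at 98.4 ± 38.8 TPM in sibling epidermis and 17.5 ± 30.6 TPM in mutant epidermis (7.37 TPM without mutant epidermis 1), a fall of 4.30 on the log2 scale (SE 1.02; limma, adjusted p = 0.00333). With detected genes as a covariate that call ended (adjusted p = 0.0714). In gill cybc1 stood at 37.3 ± 21.4 and 41.3 ± 55.1 TPM (adjusted p = 0.499). The gene rhogb stood at 766 ± 171 TPM in sibling epidermis and 62.2 ± 64.1 TPM in mutant epidermis, and at 604 ± 186 and 214 ± 185 TPM in gill, where it did not pass (adjusted p = 0.0694). Its paralogue rhoga fell in epidermis by 3.44 (SE 0.92; adjusted p = 0.00989), a call that ended with median centring (0.0872). The oxidases of other cell types that were found by symbol were low. The genes nox5 and duox2 never reached 1 TPM, nox1 had group means of at most 2.73 TPM, and duox at most 1.31 TPM. The listed symbols nox4, duoxa, duoxa1 and duoxa2 were not found among the measured genes, so their levels are not known. The organizer gene noxo1a, which serves the epithelial Nox1 oxidase in mammals, was 0.203 ± 0.358 TPM for sibling against 52.3 ± 99.2 TPM for mutant gill and did not pass (limma, adjusted p = 0.0519).

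**Figure D4:**
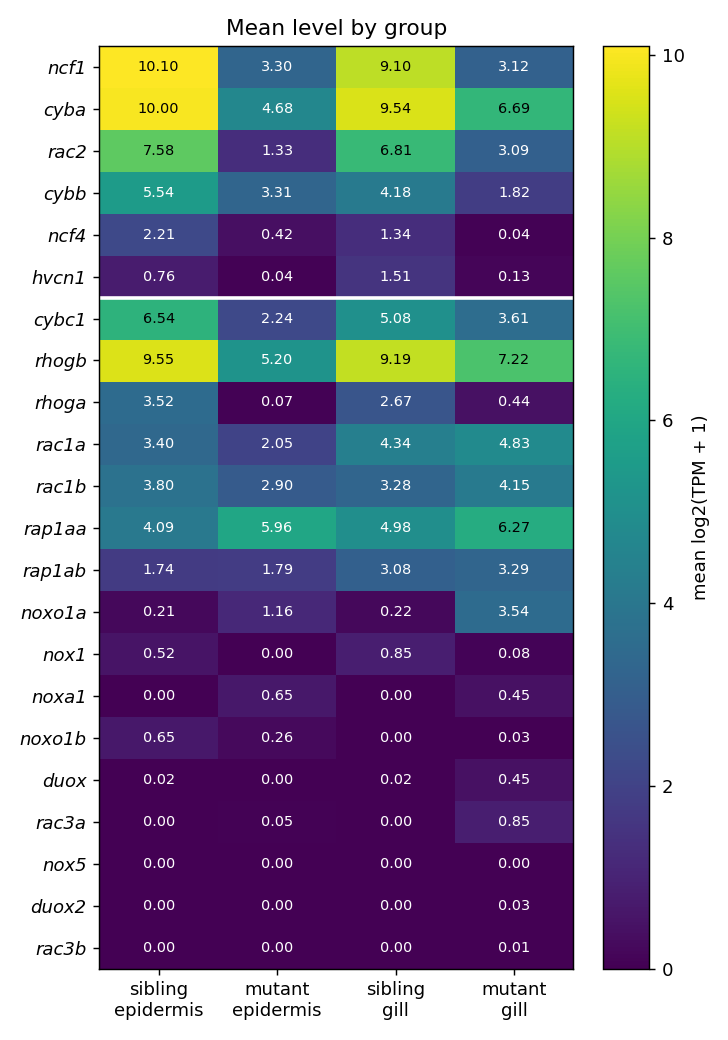
Mean log2(TPM + 1) in each of the 4 groups for the 6 oxidase genes, above the white line, and for related genes below it. The rows of cybc1, rhogb and rhoga are brighter in sibling than in mutant epidermis, and rac1a and rac1b stay between 2.05 and 4.83 in all groups.

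Of 28 listed signalling genes that act on the oxidase, 23 were tested. In epidermis 14 fell and 1 rose, beside 8.69% of all tested genes that fell and 4.13% that rose. Those with the smallest p were pik3cd, a catalytic subunit of phosphoinositide kinase in leukocytes, tiam1a, an exchange factor for Rac, arhgdig, an inhibitor of small GTPase cycling, and fcer1gl, an adaptor of immune receptors. Their log2 differences were -4.97, -4.20, -4.58 and -4.26 (limma, adjusted p of 0.000568 or lower). The gene that rose, prkcdb, a protein kinase C named after its value was seen, did so by 3.07 (adjusted p = 0.00374). In gill 6 fell and 0 rose, beside 3.87% and 2.34% of all tested genes, among them arhgdig, pik3cd, fcer1gl and syk, a kinase downstream of such receptors, with log2 differences of -4.53, -3.66, -3.58 and -3.21 (adjusted p of 0.0152 or lower). Of these, the fcer1gl call ended without sibling gill 2 (adjusted p = 0.0632), that of pik3cd with gill libraries fitted alone (0.0505), and those of fcer1gl and syk with median centring (0.0505 and 0.0811).

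Of 34 listed genes that handle oxidants, 29 were tested. In epidermis 5 fell and 0 rose, beside 8.69% and 4.13% of all tested genes, with the smallest p for the glutathione peroxidase gene gpx1a, the stress regulator gene nfe2l2a, the peroxiredoxin gene prdx5 and gclm, which encodes a subunit of the enzyme for the first step of glutathione synthesis. Their log2 differences were -5.29, -4.14, -2.30 and -3.12 (limma, adjusted p of 0.0177 or lower). Median centring ended the calls of prdx5 and gclm (0.249 and 0.116), and that of gclm also ended with pseudocount 10 (0.0691), with detected genes as a covariate (0.0928) and without the 3 libraries of fewest detected genes (0.0855). In gill 3 fell and 0 rose, beside 3.87% and 2.34% of all tested genes. They were gpx1a, hmox1a, a heme oxygenase gene, and prdx5, with log2 differences of -3.85, -3.08 and -2.52 (adjusted p of 0.00837 or lower). Leaving out sibling gill 1 changed the hmox1a mean of sibling gill from 23.3 to 7.78 TPM. The hmox1a difference was then -2.26 (limma, adjusted p = 0.0287). Median centring ended the calls of hmox1a (0.0529) and prdx5 (0.133), and fitting gill alone ended that of prdx5 (0.0602). Catalase (cat) and the superoxide dismutase genes sod1 and sod2 passed in neither tissue. Within mutants, 2 of 29 oxidant genes were higher in gill than epidermis and 0 lower, beside 3.4% and 0.824% of all tested genes. They were nfe2l2a, by 3.39 (SE 0.62, limma, adjusted p = 0.000962), and pgd, whose call ended with median centring among others (0.18). In the same comparison 1 of the 8 oxidase relatives, rhogb, and 2 of the 23 signalling genes, vav2 and pak2a, were higher. Those calls ended with median centring too, among others (0.254, 0.0797 and 0.113).

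Of 22 listed phagocyte effector genes, 11 were tested. In epidermis 5 fell, beside 8.69% of all tested genes, and in gill 3 fell, beside 3.87%, with 0 higher in either tissue. The median log2 difference in epidermis and gill was -2.11 and -1.38 for these 11 genes, -1.24 and -0.86 for the 29 oxidant genes and -2.82 and -1.45 for the 23 signalling genes. In epidermis they included spi1a, a myeloid transcription factor gene, the metalloproteinase gene mmp9 and the cathepsin S genes ctss2.1 and ctss2.2, with log2 differences of -6.41, -6.56, -4.67 and -3.87 (limma, adjusted p of 0.00504 or lower). In gill spi1a, mmp9 and ctss2.1 had log2 differences of -6.05, -3.45 and -3.78 (adjusted p of 0.0177 or lower), and the last call ended without sibling gill 2 or 4 (highest adjusted p = 0.0595) and with gill fitted alone (0.0506). Several genes of the killing machinery that accompanies the oxidase in blood phagocytes were near 0 in siblings: lyz, nos2a and nos2b had sibling means of at most 1.31 TPM.

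Genes whose pattern over the 27 libraries was most like that of an oxidase gene were found by the root mean square difference of centred log2(TPM + 1). The search covered 8649 other genes whose mean reached 10 TPM in some group. Genes with only a clone-style or Ensembl name and repeated symbols were left out, so nearer genes among them would not be seen. For ncf1 the nearest genes were cdh28 (0.61), pigrl4.2 (0.61) and il1fma (0.68). For rac2 they were cyb561a3a (0.91), agap2 (0.98) and lcp2a (1.05), and for cyba cxcr4b (1.17), inpp5d (1.2) and grap2b (1.28). The nearest genes to cybb, ska2 (1.45), ecsit (1.52) and arhgef1a (1.55), were farther from it. Among the oxidase genes themselves, ncf1 and rac2 differed by 1.28, rac2 and cyba by 1.36, ncf1 and cyba by 1.80, and cybb differed from each of these 3 by at least 2.45.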

How the data were processed

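The authors deposited 1 table of TPM values with 1 column per library; TPM divides by gene length and rescales each library to a fixed sum, so a value also depends on all other genes. Per the submitters' processing notes, STAR, featureCounts and DESeq2 were used, on builds GRCz11 and danRer11; their versions and roles, any strand setting, the gene models and the handling of multiply matching reads remain not given in the sources used here. No sequences or coordinates are given. The relative value of 1 read was taken from the modal ratio of values under 1 TPM between libraries (at least 207 genes each; 2.15-fold range), and reads were counted for the oxidase genes and cybc1 only. Such reads are amplified and are not independent molecules; limits at 0 (3 reads) cover counting error only.

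Genes reaching 1 TPM in 5 or more libraries were fitted with limma 3.58.1 (lmFit, eBayes with trend, R 4.3.3) on log2(TPM + 1), with 1 mean per group, 27 libraries and 23 residual degrees of freedom; tests are two-sided with Benjamini-Hochberg adjustment. The pseudocount understates changes of low genes. hvcn1 and spic had exact permutation tests (scipy 1.17.1). The procedure was also run on simulated data with known changes. These were drawn from normal distributions without the zeros of these libraries, so the run does not show how the test behaves with zeros. The members, lists and tests were chosen with earlier results of these data known. Some listed genes are not reported here and are left out of the list counts. Genes named were the members, oxidase relatives, up to 4 passing genes per list and comparison with the smallest p, and the 3 nearest patterns for each member whose mean reached 10 TPM in some group. Outside that rule, cat, sod1, sod2, prkcdb, lyz, nos2a and nos2b were named, and genes of the marker lists for the check of the labels.

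Alternatives were pseudocounts 0.1 and 10, array weights, median centring, quantile normalization, no filter, a stricter filter, a fit of the contrasted libraries alone, the number of detected genes as covariate, a block for the replicate number, and leaving out each library in turn. Leaving out the 3 libraries with fewest detected genes was chosen after seeing the data.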

Additional observations from a re-analysis of the deposited data

Results flagged for a closer look

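In groups of 4 to 10 libraries, 24 sets of values of the 6 oxidase genes were searched on the log2(TPM + 1) scale for 1 library far from the rest, and 6 were found. Chance gives about 1 in 20 for continuous values. That rate does not apply to the ncf4 and hvcn1 sets below, where several libraries are at 0, and in the last 2 sets all other libraries. Mutant gill 8 held 0 TPM of ncf1 where the other 7 libraries held 5.0 to 20.6 TPM. Sibling epidermis 5 held 4.70 TPM of cybb where the others held 32.7 to 122 TPM. Mutant epidermis 6 held 2.98 TPM of ncf4 where the others held at most 0.315 TPM. For hvcn1 the single libraries were sibling epidermis 3 at 21.8 TPM, mutant epidermis 3 at 0.222 TPM, which is 1 read, and mutant gill 2 at 1 TPM, which is 4 reads. No member passed the test of a different mutant effect between tissues.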

How the results depend on the processing

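The calls of ncf1 and rac2 in both tissues and of cyba in epidermis held under every alternative run, single libraries left out included; the gill call of cyba did not, and its values are given with that result. Genes called in gill, 836, became 1303 with median centring and 552 with gill libraries alone, and 520 to 884 with any 1 of the 27 libraries left out (520 without sibling gill 4). Genes with a different mutant effect between tissues, 8 (1315 at an unadjusted p under 0.05), became 26 and 13 with pseudocounts 0.1 and 10, 13 with no filter, 1 with median centring, 3 with the covariate, 18 with the replicate block, 19 with array weights, and 2 to 26 with 1 library left out (2 without sibling epidermis 3, 26 without mutant gill 8). Genes differing between sibling tissues, 129, became 72 with the stricter filter, 74 with median centring, 245 with array weights, and 76 to 138 with 1 library left out (76 without sibling gill 5, 138 without mutant gill 1, which is outside that comparison but shares its spread). Genes differing between mutant tissues, 569, became 358 with no filter, 338 with median centring, 119 with the contrasted libraries alone, 214 with the covariate and 360 with array weights. Oxidase genes higher in mutant gill than in mutant epidermis numbered 0, beside 458 of all 13465 tested genes. With the replicate block they numbered 2, beside 581 of all tested genes. Without the 3 libraries of fewest detected genes they numbered 1, beside 326. With 1 library left out they numbered 0 to 2 (2 without mutant gill 8, where 643 genes passed in either direction). Differences near 0 changed sign. The interaction of cybb became 0.20 with pseudocount 10 and 0.36 without the 3 libraries, and ranged from -1.02 to 0.44 with 1 library left out. Between mutant tissues, ncf1 became 0.028 with pseudocount 10, 0.27 with the block and 0.34 without the 3 libraries, and ranged from -0.36 to 0.27 with 1 left out, and cybc1 became -0.59 with the covariate. Quantile normalization gave 889 higher and 1006 lower calls in epidermis, beside 556 and 1170. The cause of these shifts was not tested. Deviations from the group means correlated weakly between libraries of the same replicate number (median 0.0405 over 36 pairs, highest 0.0776), beside a median of -0.00535 over 235 pairs of different numbers. No pair exceeded 0.1. Between sibling epidermis and mutant gill, the 7 same-number pairs (0.0313 to 0.0517) all lay above the 49 others (at most 0.0303). Between mutant epidermis and mutant gill, 7 pairs (0.0301 to 0.0776) lay above 49 others (at most 0.0287). Elsewhere the 2 kinds of pair overlapped. The same-number median was higher between sibling and mutant epidermis (0.0394 beside -0.00734) and between sibling epidermis and sibling gill (0.0353 beside -0.00667). It was -0.0016 beside -0.00464 between mutant epidermis and sibling gill. Between sibling and mutant gill it was lower (-0.017 beside -0.00354). The labels do not say what the numbers stand for, and the main fit did not use them as pairing. Mutant gill 8 is the 1 library numbered 8, so a replicate block takes it out of every contrast; the block gave 1828 calls in epidermis and 870 in gill. At 30 cells a library, ncf4 and hvcn1 rested on few or no reads, and small differences in them could not be seen.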

Other observations

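The mutant remainder of abundant sibling genes had a lower end that ncf1 shared. Of the 34 genes that averaged 100 TPM or more in sibling gill and had less than 2% of it left in mutants, a set chosen by these values, mutant gill 8 held 28 at 0, while the other 7 mutant gill libraries held 0 to 7 at 0 and medians of 0.456% to 1.84% of the sibling mean. In that library ncf1 was at 0, rac2 at 1 read and cyba at 7 reads. In mutant epidermis the 65 genes chosen in the same way had medians of 0.405% to 1.11% in the 7 libraries, and 1 to 9 of them were at 0.

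Mutant epidermis 7 had the lowest neuroendocrine and keratinocyte marker sums of its group, 571 and 1420 TPM, and the highest sum of the 7 metaphocyte markers, 3226 TPM. Its mucous cell markers summed to 1298 TPM. It held 8.01 TPM of ncf1 and 83.4 TPM of cyba, both within the range of the other 6 mutant epidermis libraries, and 1.02 TPM of rac2, the lowest of the 7.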
